A study of Arabidopsis thaliana with 22 samples.

Results

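The nuclear genes for the photosystem cores and the electron transport chain of the thylakoid were followed through the greening of dark-grown Arabidopsis thaliana seedlings. The 33 members were taken by locus identifier from the 33602 genes of the deposited count table. They comprise 12 genes of photosystem I (PSAD to PSAO), 10 of photosystem II (PSBO to PSBY and PSBTN), 2 of the cytochrome b6f complex (PETC and PETM), 2 each for plastocyanin, ferredoxin and ferredoxin-NADP reductase (FNR), and 3 of the chloroplast ATP synthase (ATPC1, ATPD and ATPG). Antenna genes are not among them. All 33 passed the filter on low counts, which 23011 genes passed.

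RNA was sequenced from whole etiolated seedlings of the Col-0 ecotype, with 2 libraries in each of 11 groups. All groups share the same start: germination was induced by 2 h of white light, and the seedlings then grew for 6 days in darkness at about 20 °C on medium with 2% sucrose. In the blue and the red series, libraries represent seedlings taken at 0 h, seedlings kept dark for another 6 h, and seedlings given 1 h or 6 h of continuous light. The white series has seedlings at 0 h, after another 6 h of darkness and after 6 h of light, and no white libraries at 1 h are among those used here. The labels do not say whether the 2 libraries of a group came from separate cultures, so p-values measure the spread between these libraries, which may be technical.

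Photosystem II uses light to take electrons from water and hands them through plastoquinone to the cytochrome b6f complex. Plastocyanin carries them on to photosystem I, from which ferredoxin and FNR pass them to NADP+, and the proton gradient built up on the way drives the ATP synthase. The chlorophyll-binding reaction-centre proteins are encoded in the plastid, whereas the genes followed here sit in the nucleus and their products are imported. Seedlings of flowering plants do not complete chlorophyll synthesis in darkness, and their photosystems are assembled after light reaches the plastids.

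The 12 dark libraries held 35000731 to 72685876 counts each, and the 10 light libraries held 59054903 to 138804638. Dark libraries were sequenced 4 to a pool and light libraries 2 to a pool, so pool size and light cannot be told apart. The lowest count of any member was 449 reads (PSAH2). Levels are given as CPM, which is counts scaled to a common normalised library size, and changes as log2 values ± the standard error of the fit. The etiolated state showed in PORA, the dark-expressed protochlorophyllide reductase gene, which stood at 136 to 1196 CPM in dark libraries and at 5.10 to 64.2 CPM after 6 h of light. PHYA, the gene of the light-labile phytochrome, stood at 1234 to 1714 CPM in darkness and at 353 to 731 CPM after 6 h of light. Summed root markers lay between 195 and 317 CPM over all libraries. Of the 5 root markers 4 were called higher at 6 h over the colours, with a median change of 0.44, among them EXPA7 at 1.58, PHT1;1 at 0.44 and CASP2 at 0.40. EXPA7 was at most 2.19 CPM in any library. Summed seed storage markers varied widely, from 4.92 to 831 CPM, and were highest in replicate 2 of 1 h red light (831) and of 6 h dark in the red series (579). The part of root and seed RNA in the results was not tested. Among 23011 genes the median change at 6 h, averaged over the colours, was 0.02. With library totals as the only scaling it was -0.10, and the share of higher genes among those called fell from 55.6% to 41.0%. In bulk RNA, fewer cells of a type and less RNA per cell cannot be told apart.

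In darkness the members were already transcribed, at levels that differed widely from gene to gene. Per kilobase of exon, PSBO1 was the highest at 6 h dark, at 298 CPM per kb. PSBO1 encodes the main manganese-stabilising protein of the oxygen-evolving complex. It was followed by PSAG at 257 CPM per kb and by PSBR at 235 CPM per kb, genes for small photosystem I and II subunits. FNR2 was the lowest at 13.8 CPM per kb, below PETE1 (plastocyanin) at 21.2 and PSAH2 at 28.5. A further 6 h in darkness moved no member beyond the spread of the libraries. Averaged over the series, no member was called between 6 h dark and 0 h by edgeR's quasi-likelihood test, and neither was any other gene (0% of those tested). At an unadjusted p under 0.05 there were 0 members among 769 genes, and DESeq2 called 0 members. The changes of the members in the dark lay between -0.11 (PSBP1) and 0.28 (PSBO2).

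Dark levels varied between libraries. The 33 genes together took 0.150% to 0.522% of all counts in the dark libraries. Replicate 1 of 0 h in the blue series was the highest of these, and replicate 2 of 0 h in the red series was the lowest. That red library had the lowest level of all 22 libraries for 32 of the 33 members, so it bears on every comparison with red 0 h. It also had the highest summed root markers (313 CPM) and the lowest PORA (136 CPM) and PHYA (1234 CPM) of the dark libraries. PIL1, a further marker of etiolated seedlings, was not lowest there (32.2 CPM). The part of these marker differences in the member levels was not tested. After 1 h of light the 33 genes took 0.392% to 0.788% of counts, a range that overlaps that of the dark libraries. After 6 h of light they took 1.23% to 2.67%, above every dark library.

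After 1 h of light few members had changed beyond the spread of the libraries. In blue light 3 of 33 were called higher by edgeR's quasi-likelihood test at an adjusted p under 0.05, against 5.35% of all genes tested. They were FD2, ATPD and PSAN. In red light 5 of 33 were higher, against 3.72% of all genes, namely those 3 and also FD1 and PSBO2. No member was lower in either colour. All 33 estimates were above 0 in both colours, with medians of 0.50 in blue and 0.82 in red against 0.02 and -0.0016 over all genes. Both 1 h libraries lay above both 0 h libraries for 23 of 33 members in blue, where 22.9% of all genes did so, and for 30 of 33 in red, where 23.3% did.

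The ferredoxin genes had the largest estimates at 1 h in blue light, and FD1 had the largest in red light, ahead of PSBO2 and FD2 at 1.64 each. FD2 (AT1G60950) encodes the main leaf ferredoxin, the soluble electron carrier reduced by photosystem I. In the blue series FD2 stood at 219 and 169.6 CPM at 0 h and at 524 and 457 CPM after 1 h of light. In the red series it stood at 138 and 81.4 CPM at 0 h and at 309.5 and 372 CPM after 1 h. All 4 light libraries were above all 12 dark ones. The change was 1.34 ± 0.25 in blue (adjusted p = 0.00257) and 1.64 ± 0.25 in red (adjusted p = 8.66e-04). FD1 (AT1G10960), the gene of the minor leaf ferredoxin, went from 118 and 126 CPM to 344 and 314 CPM in blue light and from 70.2 and 42.2 CPM to 185 and 312 CPM in red light. Its 4 light libraries were likewise above all dark ones. The change of FD1 was called in red at 2.14 ± 0.43 (adjusted p = 0.00781) and missed the threshold in blue at 1.43 ± 0.42 (adjusted p = 0.054).

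ATPD, the delta subunit gene of the ATP synthase, stood at 67.9 and 50.4 CPM at 0 h and 139.1 and 104 CPM after 1 h of blue light, and at 38.9 and 22.9 CPM and 64.6 and 81.9 CPM in the red series. Light libraries were above the 0 h libraries of their own series in both colours, but not above every dark library. PSAN, whose product sits on the lumen side of photosystem I where plastocyanin docks, went from 53.5 and 45.2 CPM to 104 and 78.9 CPM in blue and from 38.2 and 30.6 CPM to 58.4 and 71.7 CPM in red. Its lowest 1 h library was above its highest dark library. PSBO2, the minor isoform of the manganese-stabilising protein, went from 68.3 and 53.7 CPM to 106 and 99.3 CPM in blue and from 38.7 and 24.0 CPM to 81.7 and 114 CPM in red. The PSBO2 change was 1.64 ± 0.35 in red (adjusted p = 0.0119) and 0.75 ± 0.35 in blue (adjusted p = 0.261). Between the responses to blue and to red light at 1 h no member was called (0% of all genes were). There 0 members had an unadjusted p under 0.05, where 1415 of 23011 genes did, and DESeq2 called 0 members.

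The counts at 1 h rest on single libraries. The blue count of 3 became 0 without replicate 2 of 0 h and 1 without replicate 1 of 1 h light. It became 5 without replicate 2 of 1 h light or without replicate 1 of red 0 h, and 6 without replicate 2 of red 0 h. The red count of 5 became 24 without replicate 1 of 0 h, and 1 without replicate 2 of 0 h or without replicate 2 of 1 h light. It became 9 or 8 without replicate 1 or 2 of blue 1 h. Of the calls above, FD2 in red held without each of the 22 libraries in turn. FD2 in blue held without each except replicate 2 of blue 0 h (adjusted p = 0.0536). The blue calls of PSAN and ATPD were lost without either 0 h library or without replicate 1 of 1 h light (adjusted p = 0.0559 to 0.233). The red calls of PSAN, PSBO2, FD1 and ATPD were lost without replicate 2 of 0 h (adjusted p = 0.132 to 0.288) or without replicate 2 of 1 h light (adjusted p = 0.109 to 0.311). DESeq2 called 6 members in blue and 13 in red. The share of all genes called in these refits is not given here, so the counts show only how far the calls move.

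After 6 h of light the nuclear genes of every complex and carrier of the chain were higher at the RNA level. Averaged over blue, red and white light, 33 of 33 members rose, against 32.5% of all genes tested that were called higher. The largest adjusted p among them was 3.82e-04 (edgeR's quasi-likelihood test). The median change of the members was 2.66, with a range from 0.88 (ATPG) to 4.36 (PSAH2). By colour, 33 of 33 rose in blue light (22.8% of all genes), 32 of 33 in red light (17.6%) and 30 of 33 in white light (23.2%). Those that missed the threshold were FD1 in red at 1.10 (adjusted p = 0.0683) and, in white, PSAE2 at 0.61 (0.149), PSAH1 at 0.68 (0.193) and ATPG at 0.49 (0.187). For 31 of 33 members all 6 light libraries of 6 h lay above all 12 dark libraries, where 16.4% of all genes did so. The exceptions were FD1 and ATPG, and for both the light libraries lay above the dark libraries of their own series.

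**Figure D1:**
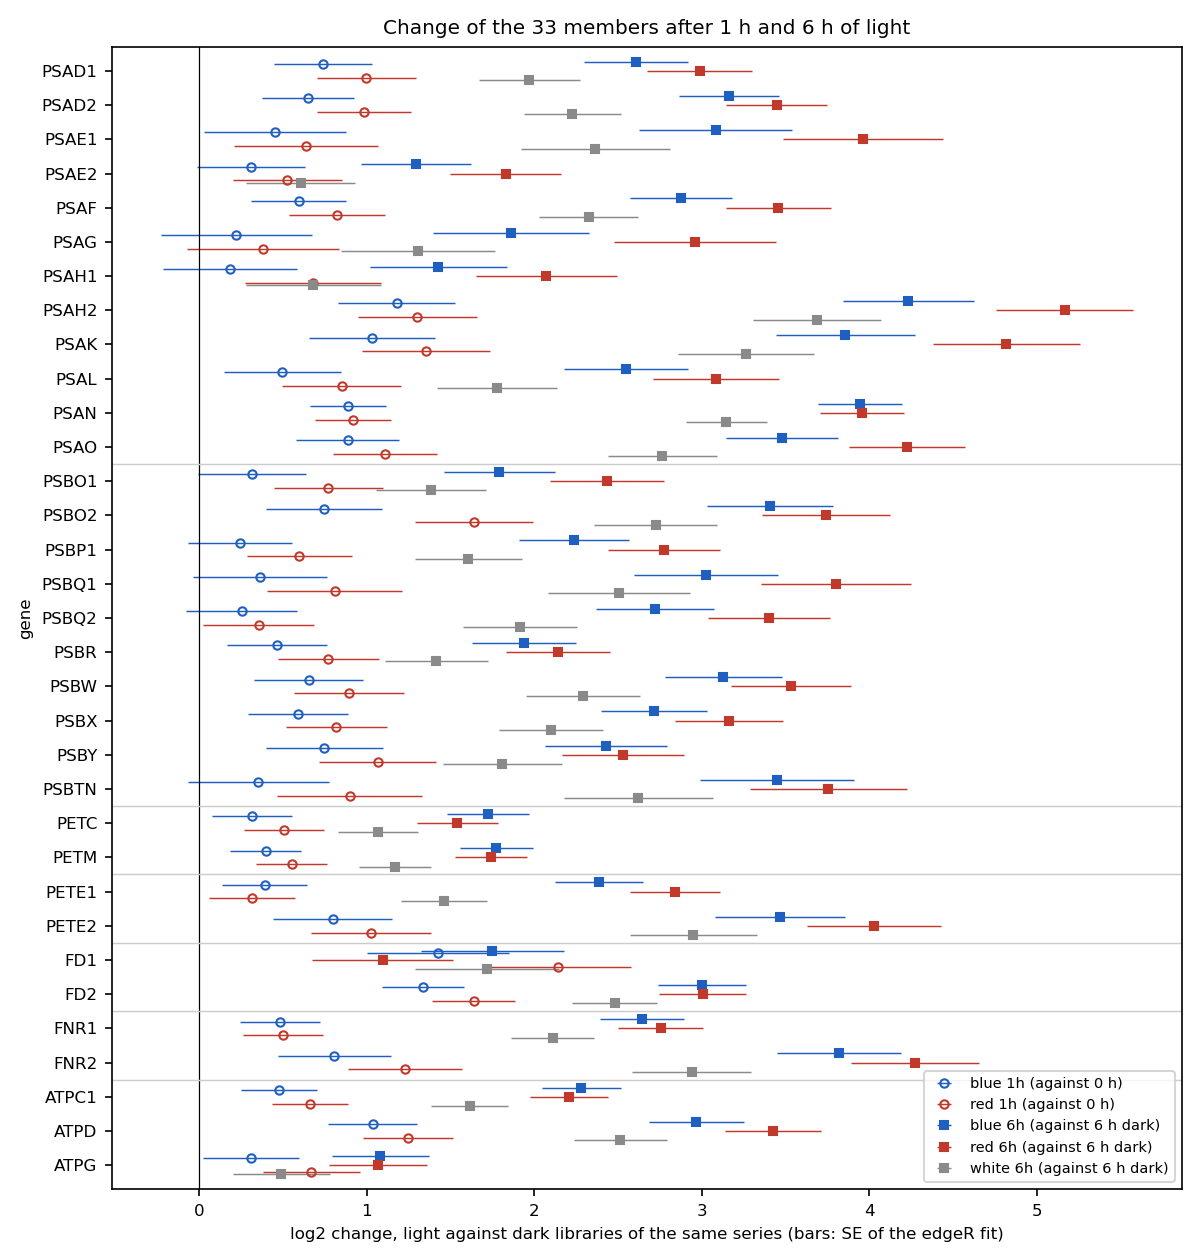
Log2 change of each of the 33 genes (rows, grouped by complex) after 1 h of light against 0 h (open circles) and after 6 h of light against 6 h dark (filled squares), coloured by light, with bars for the standard error of the edgeR fit. All points lie above 0, the 6 h values reach 5.17 for PSAH2 in red light, and FD1 is the gene whose red 1 h value (2.14) exceeds its red 6 h value (1.10).

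Sequences ahead of the genes are shown for some members, each for the trait given with it, and not for ATPG, which changed least. They are credited to the TAIR10.1 assembly and its RefSeq annotation, read 5′ to 3′ on the strand of the gene, end at the base before its annotated start, and are cut short where a neighbouring gene begins. Capitals mark motifs, each searched on both strands. The G-box was searched as CACGTG. The I-box was searched as GATAAG. The third motif was CCAATC. The TATA motif was searched as TATAAA, without overlap between any of these in the stretches shown. PSAH2 and PSAK had the largest changes. PSAH2 (chr1:19454766-19454797, plus strand) holds a G-box in the 32 bases free of its neighbour.
PSAH2: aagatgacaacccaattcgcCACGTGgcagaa
PSAK (chr1:10721933-10722182, plus strand) holds a TATA motif and, on the other strand, an I-box.
PSAK: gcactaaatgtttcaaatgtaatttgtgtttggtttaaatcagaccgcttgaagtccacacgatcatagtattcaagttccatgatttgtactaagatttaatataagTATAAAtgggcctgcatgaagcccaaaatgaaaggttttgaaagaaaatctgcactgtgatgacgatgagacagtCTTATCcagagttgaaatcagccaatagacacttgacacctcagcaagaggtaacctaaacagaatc
PSAH1 (chr3:5469595-5469844, minus strand), the less responsive copy of the PSAH pair, has a TATA motif 224 bases before its start, on the other strand, and none of the other motifs.
PSAH1: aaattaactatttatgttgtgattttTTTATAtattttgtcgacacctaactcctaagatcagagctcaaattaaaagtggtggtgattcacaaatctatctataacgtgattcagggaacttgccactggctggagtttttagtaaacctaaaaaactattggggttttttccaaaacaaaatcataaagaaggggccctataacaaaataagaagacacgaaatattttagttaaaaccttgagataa
PSAE2 (chr2:8736598-8736733, plus strand), the less responsive copy of its pair, holds a G-box as PSAH2 does.
PSAE2: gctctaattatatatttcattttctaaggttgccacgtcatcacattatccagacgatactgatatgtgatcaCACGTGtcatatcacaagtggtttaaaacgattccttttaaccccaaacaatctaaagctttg
FD2 (chr1:22444057-22444306, plus strand), the member with the clearest change at 1 h, has none of the motifs searched.
FD2: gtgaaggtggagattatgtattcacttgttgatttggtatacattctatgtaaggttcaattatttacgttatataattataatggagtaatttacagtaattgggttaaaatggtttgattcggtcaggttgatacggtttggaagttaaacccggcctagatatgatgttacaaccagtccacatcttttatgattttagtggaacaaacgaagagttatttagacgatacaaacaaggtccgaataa

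Over all members, within 250 bases before the start, a G-box stood in 6 of 33 (18.2%), namely PSAE2, PSAH2, PSBQ1, PSBQ2, PSBTN and ATPD, against 6.5% of 27437 promoters of the same length, windows that may run into a neighbouring gene. An I-box stood in 9 of 33 (27.3%) against 12.3%. The CCAATC motif stood in 12.1% against 10.2%, the TATA motif in 51.5% against 47.4%, and the evening element (AAATATCT) in 3.0% against 4.8%. The members with a G-box had changes from 1.24 (PSAE2) to 4.36 (PSAH2). A match is a description of these letters and not a binding site.

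In photosystem I all 12 genes rose, with a median change of 2.92 over the colours. PSAH2 (AT1G52230), encoding a subunit on the side of the complex where mobile antennae bind, had the largest change of all members. At 6 h it stood at 31.7 and 28.6 CPM in darkness and 520.2 and 615 CPM in blue light. In the red series it stood at 10.3 and 13.04 CPM in darkness and 376 and 462 CPM in light. In the white series it stood at 14.6 and 21.8 CPM and 258 and 213 CPM. The lowest light library was thus more than 5 times the highest dark library at any time (213 against 37.6 CPM), and the mean change was 20.6-fold (log2 4.36 ± 0.23, adjusted p = 1.56e-09).

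PSAK (AT1G30380), for a membrane subunit at the antenna side, was the next largest, with 56.0 and 51.8 CPM in darkness and 602 and 959 CPM in light of the blue series. The red series gave 17.8 and 21.4 CPM in darkness and 426 and 679.8 CPM in light, and the white series 32.8 and 48.6 CPM and 416 and 367 CPM. Light and dark libraries did not overlap, and the mean change was 3.98 ± 0.24. PSAN (AT5G64040) at 3.68 ± 0.14 and PSAO (AT1G08380), for a small membrane subunit, at 3.49 ± 0.19 followed. Both had already been among the higher estimates at 1 h. The stromal ridge, where ferredoxin docks, is formed by the plastid-encoded protein PsaC and the products of the PSAD and PSAE genes. PSAD1 (AT4G02770) and PSAD2 (AT1G03130) changed by 2.52 ± 0.18 and 2.95 ± 0.17, and PSAE1 (AT4G28750) by 3.14 ± 0.26. PSAF (AT1G31330), for the plastocyanin-docking subunit, changed by 2.89 ± 0.18 and PSAL (AT4G12800) by 2.47 ± 0.21.

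PSAE2 (1.24 ± 0.19), PSAH1 (1.39 ± 0.24) and PSAG (2.04 ± 0.27) had the smallest changes in photosystem I. PSAG (AT1G55670), for a membrane subunit, had the widest spread in darkness of the 3, from 49.6 to 386 CPM over 12 libraries, and 467 to 1140 CPM after 6 h of light. Its call in white light was lost without any of the 4 libraries of that contrast (adjusted p up to 0.168). In blue light, leaving out replicate 2 of the light group ended the calls of PSAE2 (adjusted p = 0.0884), PSAH1 (0.144), FD1 (0.0577) and ATPG (0.0824). Leaving out replicate 1 of 6 h dark ended those of PSAE2 (0.0543) and PSAH1 (0.0642), and leaving out replicate 2 of 6 h dark those of PSAG (0.0663), PSAH1 (0.077) and ATPG (0.0612). In red light the call of ATPG was lost without replicate 1 of 6 h dark (0.114) or replicate 2 of the light group (0.209). Exons of PSAG share 61.4% of their bases with a gene on the other strand (AT1G55673), and those of PSAH1 share 53.3% with AT3G16130. The library kit does not mark strand, so reads from such overlaps cannot be assigned with certainty. AT3G16130 itself was counted at a mean of 0.261 CPM at 6 h dark and 1.10 CPM at 6 h light, while AT1G55673 is not among the genes counted. For PSAE1 the shared portion is 34.1% and for PSAH2 24.8%, and for no other member is it above 12.7%.

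In photosystem II all 10 genes rose, with a median change of 2.67. The largest changes were those of PSBO2 (AT3G50820) at 3.29 ± 0.22, of PSBTN (AT3G21055), which encodes a small lumenal subunit, at 3.28 ± 0.26, and of PSBQ1 (AT4G21280), for an extrinsic protein of the oxygen-evolving complex, at 3.11 ± 0.25. PSBTN stood at 9.16 to 48.2 CPM in the 12 dark libraries and at 158 to 507 CPM in the 6 light libraries of 6 h, without overlap. PSBW (AT2G30570), PSBX (AT2G06520) and PSBY (AT1G67740), for small membrane subunits, changed by 2.98 ± 0.20, 2.66 ± 0.18 and 2.26 ± 0.21. PSBP1 (AT1G06680), the gene of the main extrinsic PsbP protein, changed by 2.21 ± 0.19 and PSBQ2 (AT4G05180) by 2.68 ± 0.20. The smallest changes were those of PSBR (AT1G79040) at 1.83 ± 0.18 and of PSBO1 (AT5G66570) at 1.87 ± 0.19, which were also the members of this group with the highest levels per kilobase in darkness. PSBO1 stood at 165 to 708 CPM in the dark libraries and at 1061 to 2495 CPM after 6 h of light.

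Between the photosystems, PETC (AT4G03280), the Rieske iron-sulphur protein gene of cytochrome b6f, and PETM (AT2G26500), for a small subunit of the same complex, changed by less than the median member. PETC stood at 183 and 176 CPM at 6 h dark and 531 and 654 CPM at 6 h light in the blue series. The red series gave 121 and 134 CPM and 309 and 434 CPM, and the white series 146 and 157 CPM and 321 and 314 CPM. Light and dark did not overlap, and the changes were 1.44 ± 0.14 for PETC and 1.56 ± 0.12 for PETM. The ranges of the 6 libraries of 6 h light against the 12 dark ones were 309 to 654 against 73.1 to 183 CPM for PETC and 230 to 433 against 50.9 to 124 CPM for PETM. Plastocyanin is encoded by PETE1 (AT1G76100) and PETE2 (AT1G20340), of which PETE2 held 73.3% to 81.0% of the pair per kilobase at 6 h dark and 85.9% to 91.2% at 6 h light. PETE2 went from 134 and 123 CPM to 1154 and 1687 CPM in the blue series, and its change over the colours was 3.48 ± 0.22. PETE1 was the lowest member per kilobase after 6 h of light at 106 CPM per kb, with a change of 2.23 ± 0.15.

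On the acceptor side, FD2 was the highest of all members per kilobase after 6 h of light, at 1216 CPM per kb against 169 in darkness. It stood at 200.04 and 199 CPM at 6 h dark and 1425 and 1771 CPM at 6 h light in the blue series. The red series gave 121 and 147 CPM and 907 and 1250.3 CPM, and the white series 141 and 187 CPM and 955 and 877 CPM. No light library overlapped a dark one, and FD2 changed by 2.83 ± 0.15. The reductase genes FNR1 (AT5G66190) and FNR2 (AT1G20020), for the enzyme that reduces NADP+ with electrons from ferredoxin, changed by 2.50 ± 0.14 and 3.68 ± 0.21. FNR2 lay at 9.13 to 37.4 CPM in the dark libraries and at 200.2 to 424 CPM after 6 h of light, and went from the lowest level per kilobase of any member to the third lowest, above PETE1 and PSAH1.

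In the chloroplast ATP synthase all 3 genes rose, by unlike amounts. ATPD (AT4G09650) changed by 2.97 ± 0.16, ATPC1 (AT4G04640), the gamma subunit gene, by 2.03 ± 0.13, and ATPG (AT4G32260), for a subunit of the peripheral stalk, by 0.88 ± 0.17. ATPG stood at 206 and 194 CPM at 6 h dark and 354 and 494 CPM at 6 h light in the blue series. In the red series the dark libraries stood at 126 and 149.6 CPM and the light libraries at 217 and 359 CPM, and in the white series at 163 and 196 CPM and 248 and 257 CPM. The lowest light library (217 CPM, red 6 h) lay below the highest dark library (225 CPM, blue 0 h). ATPG was the 7th highest member per kilobase at 6 h dark and the 28th at 6 h light.

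**Figure D2:**
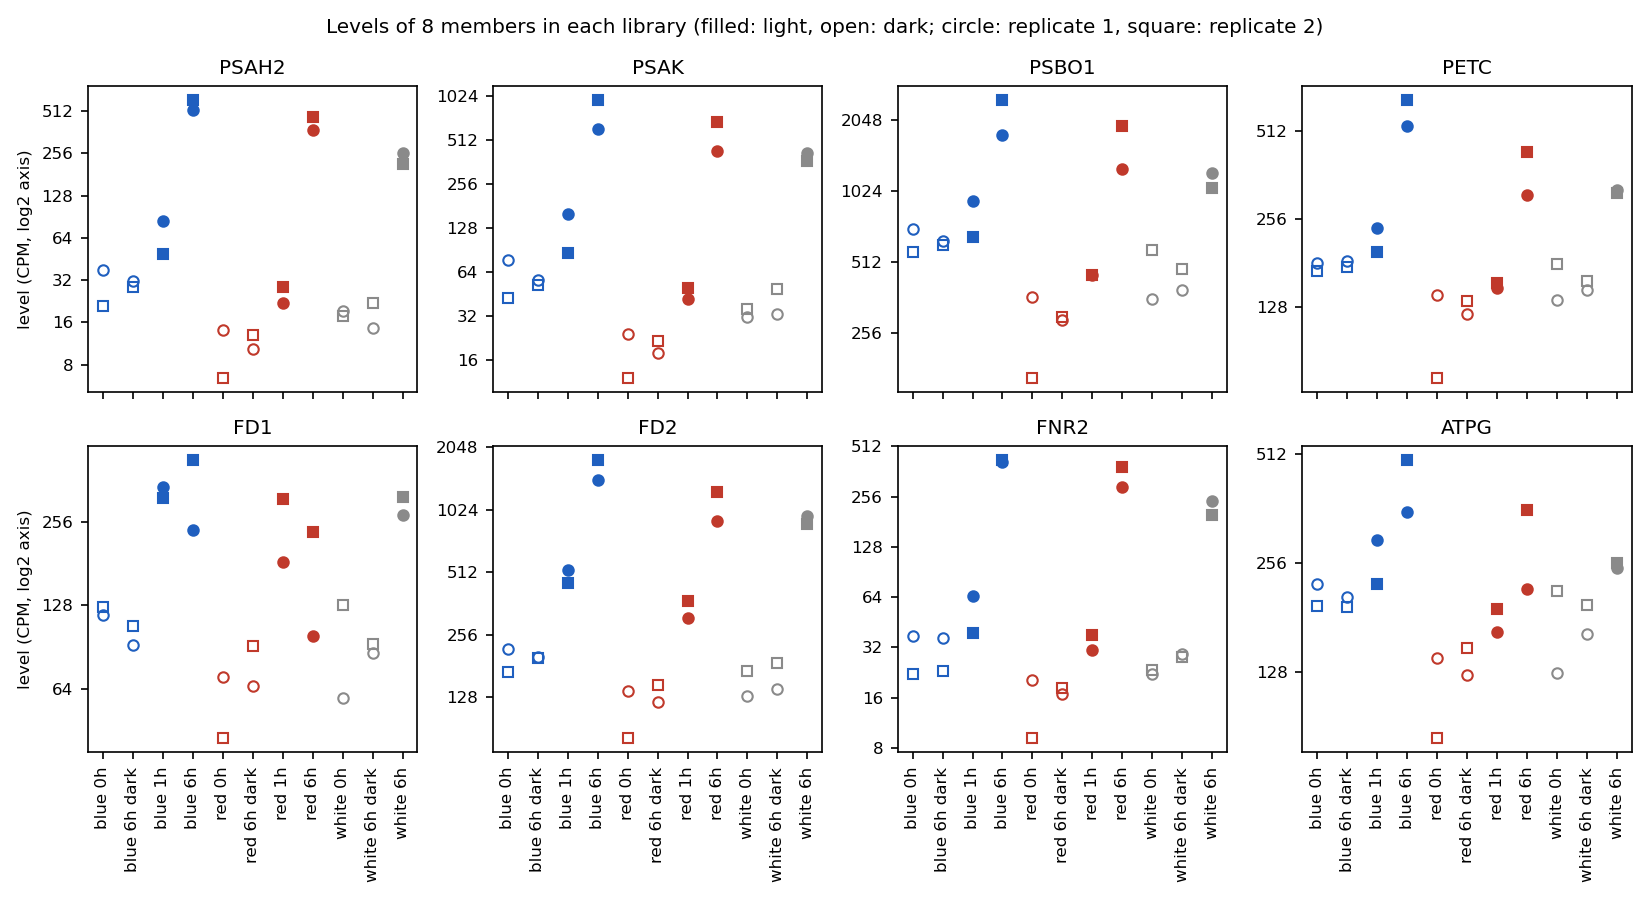
Level of 8 members in each library (CPM on a log2 axis), by group along the horizontal axis, with filled symbols for light, open symbols for darkness, circles for replicate 1 and squares for replicate 2. PSAH2 climbs from at most 37.6 CPM in darkness to at least 213 CPM after 6 h of light. FD1 is above all dark libraries (at most 128 CPM) at 1 h. At 6 h of light its replicate 1 in red (99.2 CPM) lies within the dark range and the other light libraries lie above it.

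Whether the 6 h response exceeded the 1 h response was tested as the difference of the light effects, each against its own dark group. It did so for 28 of 33 members in blue light, where 9.15% of all genes were called higher, and for 26 of 33 in red light, where 5.82% were. In blue the 5 members without a call were PSAE2 (0.99), PSAG (1.64), PSAH1 (1.24), FD1 (0.32) and ATPG (0.77). In red they were PSAE2 (1.30), PSAH1 (1.39), PSBR (1.37), PSBY (1.46), PETC (1.03), FD1 and ATPG (0.40). Without the blue libraries numbered 1, an alternative chosen after the data were seen, the blue count was 15, with 1 library left in each blue group.

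FD1 was the only member with a lower estimate at 6 h than at 1 h, and this in red light. In the red series it stood at 70.2 and 42.2 CPM at 0 h, 185 and 312 CPM after 1 h of light, 65.6 and 91.1 CPM at 6 h dark and 99.2 and 236 CPM after 6 h of light. In the blue series it stood at 91.8 and 108 CPM at 6 h dark and 241 and 430.4 CPM after 6 h of light, beside the 0 h and 1 h values given above. In the white series FD1 stood at 86.2 and 92.6 CPM at 6 h dark and 273 and 316 CPM at 6 h light. The red 6 h libraries overlap the blue dark libraries and the red 1 h libraries. The difference between the red responses was -1.05 ± 0.59 (adjusted p = 0.303), so a fall from 1 h to 6 h was not shown beyond the spread of the libraries. Exons of FD1 share 9.1% of their bases with AT1G10950 on the same strand, which was counted at 241 CPM at 6 h dark and 192 CPM at 6 h light.

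The colours of light were compared through the 6 h responses of their own series. Between blue and red no member was called by edgeR (0.0956% of all genes were), and DESeq2 called 0. An unadjusted p under 0.05 was found for 0 members, where 1460 of 23011 genes had one. Estimates were higher in red for 28 of 33 members, with a median difference of -0.45 for blue minus red, against 0.0072 over all genes. Between blue and white no member was called (0.0608% of all genes), and DESeq2 called 0. An unadjusted p under 0.05 was found for 3 of 33, where 1880 of 23011 genes had one. The estimate was higher in blue for all 33 (median 0.63, against 0.037 over all genes). Between red and white no member was called either (2.72% of all genes). An unadjusted p under 0.05 was nonetheless found for 22 of 33, where 3922 of 23011 genes had one. The estimate was higher in red for 32 of 33 (median 1.13, against 0.036 over all genes). The smallest adjusted p was 0.0557 for PETE1, at 1.38 ± 0.36, and DESeq2 called 6 members higher in red. The edgeR count became 5 without replicate 1 of red 0 h, 4 without replicate 2 of red 0 h, and 1 without replicate 1 of red 6 h. For these refits and for DESeq2 the share of all genes called is not given here. FD1 was the exception, with an estimate lower in red than in white (-0.62 ± 0.59). The level of the members at 6 h was higher in replicate 2 than in replicate 1 for 33 of 33 members in blue and in red, and for 3 of 33 in white. The dark levels under these estimates also differed: the summed members stood at 2362 CPM in the lowest 6 h dark library, which is red, and at 4596 CPM in the highest, which is blue. The comparisons with white share the white libraries. The part of these library differences in the colour estimates was not tested.

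For 8 of the proteins encoded here 2 nuclear genes each are among the members, and the copies of a pair responded by different folds. Second genes outside the members, such as ATPC2, are not among these pairs. For each pair the log2 ratio of the copies was taken within each library, which removes the library scaling. The 6 light and 6 dark libraries of 6 h were compared by a two-sided exact permutation test within series. In all 8 pairs the ratio differed between light and dark at p = 0.00926, the smallest value that the 216 permutations can give (Benjamini-Hochberg over the 8 pairs, 0.00926). The direction was the same in all 3 series for every pair. The copies are not near-identical in their coding sequence: identity was 75.0% to 88.0%, and no stretch longer than 35 bases was shared.

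The PSAH pair changed most. PSAH1 (AT3G16140) lies on chromosome 3 and PSAH2 on chromosome 1. Their upstream stretches are printed above. PSAH2 over PSAH1 rose by 3.01 on the log2 scale, which is 8.07-fold, with 2.87 in blue, 3.15 in red and 3.02 in white. PSAH1 stood at 91.6 and 87.9 CPM at 6 h dark and 170.1 and 312 CPM at 6 h light in the blue series. In the red series the dark libraries stood at 39.1 and 40.6 CPM and the light libraries at 121 and 214 CPM, and in the white series at 60.5 and 80.9 CPM and 114 and 113 CPM. PSAH1 was thus the more abundant copy in every dark library of 6 h, and PSAH2 in every light library of 6 h. Per kilobase, PSAH2 held 30.8% to 39.1% of the pair at 6 h dark, 42.9% to 52.7% after 1 h of light and 77.8% to 85.1% after 6 h. Both copies overlap other genes, PSAH1 over 53.3% and PSAH2 over 24.8% of exon bases, which makes these shares uncertain. The neighbour of PSAH2, AT1G52240, was counted at a mean of 3.57 CPM at 6 h dark and 4.11 CPM at 6 h light. The part of misassigned reads in the ratio was not tested.

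The PSAE pair moved the other way with respect to its numbering. PSAE2 (AT2G20260) over PSAE1 fell by 1.89, a 3.71-fold difference, since PSAE1 rose more. PSAE2 went from 69.8 and 80.3 CPM to 135 and 233 CPM in the blue series, from 43.5 and 46.1 to 121 and 197 CPM in the red series and from 57.2 and 72.0 to 100.5 and 96.1 CPM in the white series. PSAE1 went from 75.8 and 82.2 to 477 and 863 CPM in blue, from 30.5 and 38.0 to 378 and 689 CPM in red and from 49.7 and 77.2 to 352 and 303 CPM in white. The copies lay close together in darkness, and PSAE1 was well above PSAE2 in every 6 h light library. PSAE2 held 54.8% to 65.2% of the pair per kilobase at 6 h dark and 26.2% to 29.7% at 6 h light.

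In 4 further pairs the second copy gained by more than 1 on the log2 scale. PSBO2 over PSBO1 rose by 1.44, with PSBO2 at 9.27% to 15.2% of the pair per kilobase in darkness and 26.7% to 28.7% in light. FD2 over FD1 rose by 1.36, and this value ranged from 0.78 in white to 2.01 in red. PETE2 over PETE1 rose by 1.24 and FNR2 over FNR1 by 1.19. FNR2 held 23.2% to 30.8% of its pair per kilobase in darkness and 41.1% to 51.2% in light, so that the reductase copies came close to equal. The remaining pairs had the smallest differences. PSAD2 over PSAD1 rose by 0.42 and PSBQ2 over PSBQ1 fell by 0.43, and for PSBQ the light and dark ratios overlapped between series. In the ferredoxin pair FD2 held 58.4% to 65.4% per kilobase at 6 h dark, 50.9% to 59.2% after 1 h of light and 70.6% to 88.8% after 6 h of light.

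**Figure D3:**
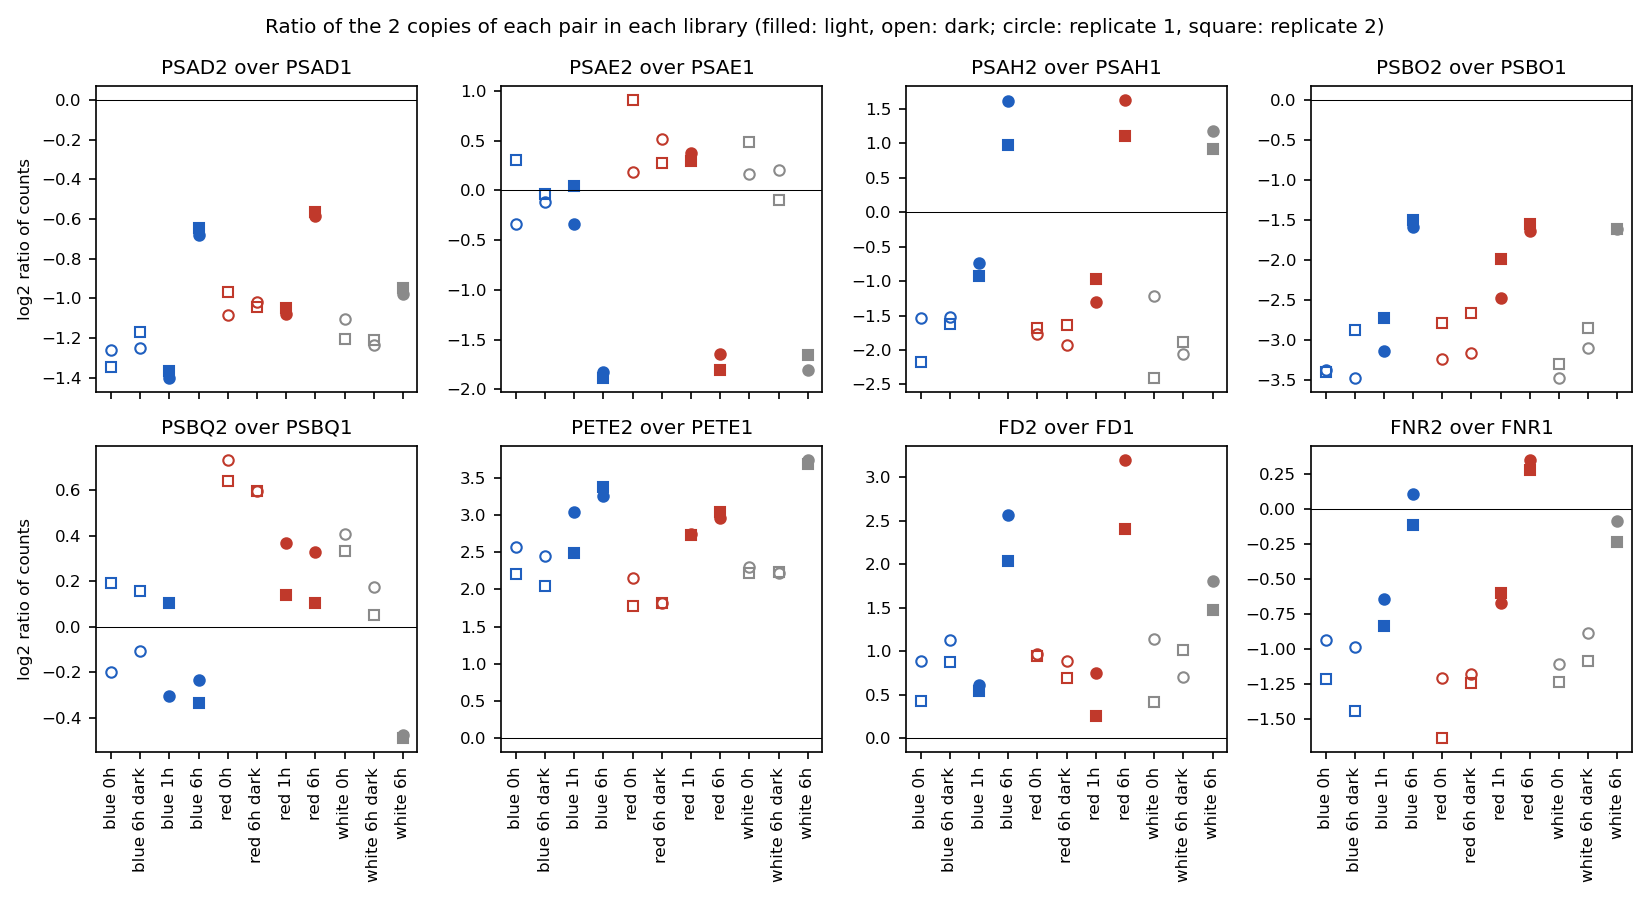
Log2 ratio of the counts of the copies of each of the 8 pairs (vertical axes) in each library, by group along the horizontal axes, with filled symbols for light, open symbols for darkness, circles for replicate 1 and squares for replicate 2. PSAH2 over PSAH1 crosses 0, from -2.05 to -1.53 at 6 h dark to 0.92 to 1.63 at 6 h light, and PSAE2 over PSAE1 moves the opposite way.

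The subunits of photosystem I, which assemble into the same complex, came closer together in their transcript levels. With the copies of a pair summed and levels taken per kilobase, the 9 nuclear subunits in the table were compared within each library. Their lowest and highest differed by a factor of 4.86 to 9.73 in the 6 h dark libraries, 3.45 to 5.87 after 1 h of light and 1.85 to 2.28 after 6 h of light. The standard deviation of their log2 levels was 0.803 to 0.987 over all dark libraries, 0.631 to 0.750 at 1 h and 0.311 to 0.441 at 6 h of light, with no overlap between these ranges. The 4 subunits that were lowest at 6 h dark over the series had the largest mean rises in log2 level, namely PSAK (3.97), PSAN (3.69), PSAO (3.49) and PSAH (3.16). The highest in darkness, PSAG, had the smallest rise (2.05). Each rise is measured from the same dark level that gives the order, so this restates the narrowing and is not separate evidence for it. For PSAG, for example, replicate 1 of the blue series gave 433 CPM per kb at 6 h dark and 1177 at 6 h light, and for PSAK 72.8 and 783. Over all 33 members the copies were not summed. Their standard deviation was 1.03 to 1.12 at 6 h dark and 0.906 to 0.984 at 6 h light, which cannot be set against that of summed subunits. As single genes, the 12 of photosystem I had mean levels from 28.5 (PSAH2) to 257 CPM per kb (PSAG) at 6 h dark. At 6 h light they ran from 134 (PSAH1) to 1115 CPM per kb (PSAF), so the narrowing is described for summed copies only. The comparison of subunits was chosen after the levels had been seen and was not tested. Exons of PSAG share 61.4% of their bases with a gene on the other strand. For PSAH1, PSAE1 and PSAH2 the shared portions are 53.3%, 34.1% and 24.8%. The part of such overlaps in the narrowing was not tested.

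**Figure D4:**
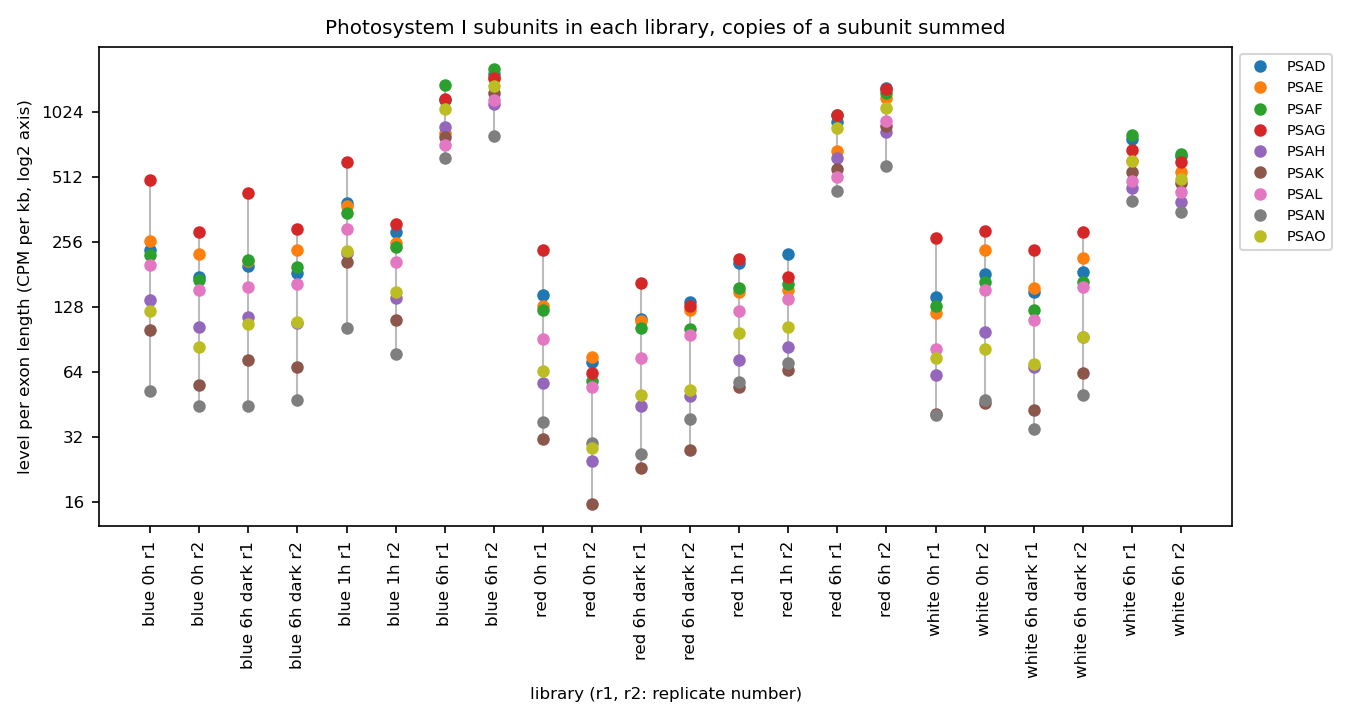
Levels of the 9 nuclear photosystem I subunits per kilobase of exon (CPM per kb on a log2 axis) in each of the 22 libraries, with the copies of PSAD, PSAE and PSAH summed and a grey line from the lowest to the highest subunit. The lines are longest in the dark libraries (a factor of up to 9.73) and shortest after 6 h of light (1.85 to 2.28). Exons of PSAG overlap a gene on the other strand over 61.4% of their bases.

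The 33 genes lie on all 5 chromosomes, with 14 on chromosome 1, 4 on chromosome 2, 3 on chromosome 3, 9 on chromosome 4 and 3 on chromosome 5. Their exon lengths span 607 to 1834 bases.

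Other genes of the same machinery were read from lists. Of 24 genes for assembly factors and auxiliary proteins of these complexes, 24 rose at 6 h over the colours, where 32.5% of all genes did, with a median change of 1.11, below the 2.66 of the members. CCB3, needed for heme attachment in cytochrome b6f, rose by 3.74, HCF173, needed for translation of the photosystem II reaction-centre protein D1, by 2.61, and CYP38, a lumenal immunophilin of photosystem II assembly, by 1.99. Of 20 genes of cyclic electron flow, 18 rose and 2 fell, with a median of 1.91. PNSB1 and PNSB5, subunits of the chloroplast NAD(P)H dehydrogenase-like complex, rose by 3.22 and 2.57, and PGRL1A, of the antimycin-sensitive route, by 2.74. The genes that fell were NDHO by 0.87 and NDHS by 0.46, both of the same complex, named after their values were seen.

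Of 9 relatives of the members, most of them linked to non-green plastids or of unsettled role, 8 were tested and 3 rose. That share of 37.5% is near the 32.5% of all genes. FDC2 and FDC1, ferredoxins with an extended C terminus, rose by 2.01 and 1.01, and RFNR2, a root-type reductase, by 0.42. RFNR1 stood at 0.23, the root-type ferredoxin FD3 at 0.03, the second gamma subunit gene ATPC2 at -0.06, PSBP2 at -0.25 and CYTC6A, for a cytochrome c6-like protein, at 0.31, and none of these was called. FD4 did not pass the filter. Of 31 plastid loci for partner subunits 10 passed the filter, and 8 of the 31 had no count in any library. Of the 10, only atpA and atpF exceeded 10 CPM in any library, and the other 8 reached at most 5.08 CPM. None of the 10 was called higher and 3 were called lower (petN, psaB and psbM, at 0.186 to 1.91 CPM), with a median of -0.34. Plastid psbA reached at most 0.185 CPM, beside 233 to 1138 CPM for atpA. How far these libraries capture plastid RNA was not tested, so these calls are not set against those of the members.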

How the data were processed

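RNA of 22 libraries was measured by sequencing of TruSeq v2 libraries made from 4 µg of total RNA, per the labels' protocols. The deposited table gives a raw whole-number read count per gene and library without normalisation, per the file headers. The build is TAIR10, per the submitters' processing notes. For the aligner, the counting tool and the strand setting, the sources used here give nothing. Loci were matched to the TAIR10.1 RefSeq annotation (32835 of 33602), which gave exon lengths, neighbours and promoters. The exon lengths behind the deposited counts are not given and may differ, so levels, ranks and shares per kilobase are uncertain to that extent.

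Genes were filtered with filterByExpr (minimum count 10), which kept 99.99% of counts. Counts were tested in R 4.3.3 with edgeR 4.0.16 (quasi-likelihood F test, TMM factors), fitting 11 group means to the 22 libraries, which leaves 11 residual degrees of freedom. The Benjamini-Hochberg adjustment ran across 23011 genes, and calls were made below an adjusted 0.05. The standard error is the log2 change divided by the square root of F. Each light group was compared with 0 h (for 1 h) or 6 h dark (for 6 h) of its own series, and differences between colours and times were tested as interactions. Ratios of gene pairs were log2 values with 0.5 added to each count, compared by an exact permutation test. Both tests were tested on simulated data. The members, the lists and the rule for named genes (all members, and of the other lists the 3 called genes with the smallest adjusted p at 6 h over the colours, with all relatives) were chosen with earlier results of these data known. Plastid loci that passed the filter were tested in the same fit as the other genes. Counts of overlapping genes are uncertain. Alternatives changed the scaling (RLE, library totals), the filter (none, or 5 CPM in 2 libraries), the tool (DESeq2 1.42.0), the depth (thinned to the smallest total), the genes (no organelle genes), the libraries fitted (those of a contrast alone) and the pseudocount of the pair ratios (5), added a replicate block, and omitted every library singly, with a lone library assumed to vary like the other groups. Leaving out the blue libraries numbered 1 was added after the data were seen.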

Additional observations from a re-analysis of the deposited data

Results flagged for a closer look

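The response of the members to light differed between exposure times in both colours where it could be tested. The difference itself was tested as an interaction by edgeR's quasi-likelihood test. In blue light the 6 h response exceeded the 1 h response for 28 of 33 members, where 9.15% of all genes were called higher. The median difference was 2.05, against 0.02 over all genes, and the largest was that of PSBTN (3.10). In red light it did so for 26 of 33 members, where 5.82% of all genes were called higher. The median there was 2.25, against 0.04 over all genes, and the largest difference was that of PSAH2 (3.86). No member was called in the opposite direction.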

How the results depend on the processing

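The 6 h counts against darkness kept their direction and stayed within 1.5 times of the value given under every alternative run. Without each library in turn they ranged from 29 to 33 in blue, 31 to 33 in red and 29 to 30 in white, and were 33 throughout for the mean of the colours. The 1 h counts did not. In blue (3 members) the count was 5 with no filter, 6 with DESeq2, 5 with the replicate block and 0 without the blue libraries numbered 1, and 0 to 6 without each library in turn. In red (5 members) it was 10 with no filter, 13 with DESeq2, 0 with only the libraries of the contrast and 8 without the blue libraries numbered 1, and 1 to 24 without each library in turn. For red minus white at 6 h (0 members) it was 1 with library totals alone, with no filter and with the stricter filter, 6 with DESeq2 and with only the libraries of the contrast, and 0 to 5 without each library in turn. For blue 6 h minus 1 h (28 members) it was 15 without the blue libraries numbered 1 and 24 to 29 without each library in turn, and for red 6 h minus 1 h (26 members) 19 to 29. The cause of these shifts was not tested, and the share of all genes called under each alternative is not given here.

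No label ties same-numbered libraries together. As a hint from the data, same-numbered libraries deviated together with a correlation over 0.1 in 6 of 6 pairs of groups in the blue series, 5 of 6 in red and 3 of 3 in white (lowest -0.08, median 0.33, highest 0.71). With the replicate block FD1 (adjusted p = 0.0290) and PSAH2 (0.0484) were also called at 1 h of blue light and FNR2 (0.0292) at 1 h of red light, no call of a member was lost, and no other count moved by over 1.5 times. For the gene pairs a replicate block with permuted signs gave an adjusted p of 0.03125 for all 8 pairs, the smallest it can give, and no alternative changed the direction of a ratio.

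Single estimates changed sign in 94 cases, none of them called. Of these 82 moved by at most the standard error of the fit, 77 of them between 6 h dark and 0 h and 5 at 1 h of blue light, and 12 moved by more. At 1 h of blue light and without replicate 1 of that group, PSAG was -0.33 (up to 0.65 without another library), PSBQ1 -0.23 (up to 0.82), PSBQ2 -0.083 (up to 0.50) and PSBTN -0.077 (up to 0.66). At 1 h of red light and without replicate 2 of 0 h, PSAG was -0.28 (up to 1.61), PSBQ2 -0.20 (up to 1.25) and PETE1 -0.0076 (up to 0.72). Between 6 h dark and 0 h, PSAE2 ranged from -0.16 to 0.20, PSAG from -0.29 to 0.34, PSBP1 from -0.28 to 0.15, PSBQ2 from -0.27 to 0.21 and PSBX from -0.17 to 0.21. Of the values for single members 7264 kept their side of the threshold, a number that includes the 82 smaller sign changes. The 12 larger ones are counted apart from it. A further 76 values came to pass the threshold and 40 no longer did. The lowest count of a member was 449 reads, and each group has 2 libraries.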

Other observations

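The order of the members per kilobase of exon shifted between 6 h dark and 6 h light, described here after the levels had been seen and without a test. PSAH2 went from rank 31 of 33 (28.5 CPM per kb) to rank 15 (580 CPM per kb), PSAK from rank 25 (49.5) to rank 10 (748), PSAO from rank 17 (80.1) to rank 6 (905) and PETE2 from rank 19 (72.5) to rank 9 (805). In the other direction ATPG went from rank 7 (154 CPM per kb) to rank 28 (288), PSAE2 from rank 14 (101) to rank 29 (243), FD1 from rank 13 (104) to rank 27 (311), PETM from rank 11 (111) to rank 25 (331) and PETC from rank 9 (139.6) to rank 20 (390.2). PSBO1 stayed among the highest, at rank 1 in darkness and rank 3 in light.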
